A study of Homo sapiens with 8 samples.

Results

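F-box protein genes were taken as the protein-coding genes of a RefSeq gene table whose symbols read FBXL, FBXO or FBXW followed by a number and, at most, a letter. The rule found 63 of 20033 protein-coding genes, of which 17 are FBXL, 36 FBXO and 10 FBXW genes. It leaves out F-box genes that carry other symbols, which are described separately. YTHDF2 is a cytoplasmic reader of N6-methyladenosine (m6A) in mRNA that recruits deadenylation and decay factors. iCLIP2 maps its RNA contacts by linking protein to RNA with ultraviolet light and reading where cDNAs end at the crosslinked nucleotide. The cells were wild-type HEK293T, an established human embryonic kidney line, and each library was made with an antibody to YTHDF2. In 4 libraries the cells had received 20 µM STM2457, an inhibitor of the m6A methyltransferase METTL3, in 0.2% DMSO for 12 h, and in 4 libraries 0.2% DMSO alone for 12 h. The deposited list is 1 file of 37613 distinct single-nucleotide positions for the whole series. No column of it names a library, so no value can be given to a treatment or replicate. Its row order shows a shorter and a longer part, and no label ties either part to libraries. STM2457 and DMSO were not compared, the read depth of a site is unknown, and all values below describe sites and genes without a test.

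F-box proteins are the substrate-binding subunits of SCF ubiquitin ligases. The F-box motif docks on SKP1, SKP1 binds the scaffold CUL1, and RBX1 at the other end of CUL1 brings in a ubiquitin-charged E2 enzyme. The rest of the F-box protein selects the substrate, through WD repeats in the FBXW class, leucine-rich repeats in the FBXL class and various other domains in the FBXO class. Through these adaptors the cell times the destruction of cyclins, transcription factors and metabolic regulators.

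YTHDF2 sites lay in 32 of the 63 F-box genes (50.8%, exact binomial 95% interval 37.9 to 63.6), beside 39.2% of all 19906 protein-coding genes that could be scored. The interval covers counting error only, and genes are not independent replicates. It includes the share of all genes. There were 3 or more sites in 25 F-box genes (39.7%, beside 24.0% of all genes) and 10 or more in 8 (12.7%, beside 4.99% of all genes). No interval was computed for the shares with 3 or more or with 10 or more sites. The 32 genes held 217 sites, with a median of 6.5 sites (quartiles 3.75 and 9.25), and all 7813 genes with a site had a median of 3 (quartiles 2 and 6). No F-box gene exceeded 16 sites, whereas the maximum over all genes was 95.

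**Figure D1:**
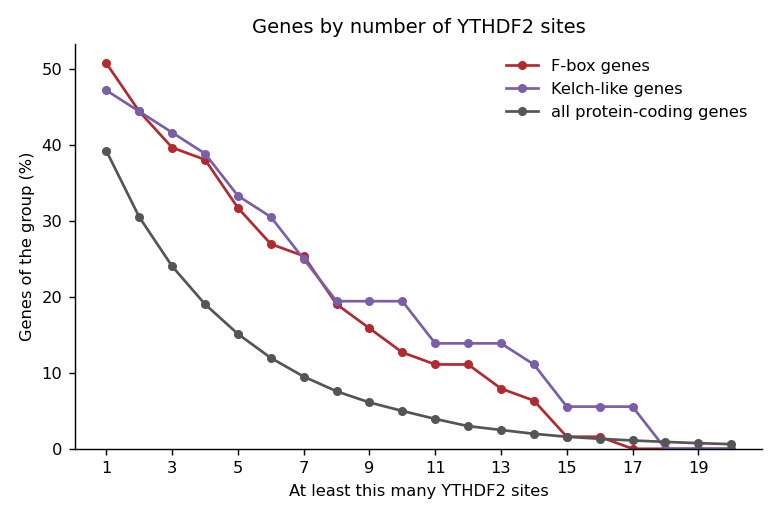
Percentage of genes (y axis) that hold at least the number of YTHDF2 sites on the x axis, for F-box genes, Kelch-like genes and all protein-coding genes. The F-box line starts at 50.8% against 39.2% for all genes and meets that of all genes at 15 sites, where both are near 1.59%.

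The F-box genes spanned a median of 35.9 kb of genome, introns included, and all scored genes 24.1 kb. Among genes spanning 20 to 60 kb, 17 of 26 F-box genes (65.4%, exact binomial 95% interval 44.3 to 82.8) and 46.6% of all genes had a site. Among those of 60 kb or more the figures were 10 of 21 (47.6%) and 45.0%, and below 20 kb they were 5 of 16 (31.3%) and 31.2%. The interval in the 20 to 60 kb class includes the share of all genes. With 26 genes it is too wide to tell whether that class differs. Bound F-box genes had a median of 0.136 sites per kb of span, beside 0.108 over all bound genes. Kelch-like genes, which encode substrate adaptors of CUL3 ligases and were taken by the symbol KLHL with a number, resembled F-box genes in these counts. Of 36 such genes 17 (47.2%) had a site, with a median of 7 sites. The list holds no mRNA levels, and their part in these counts was not tested.

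By class, sites were found in 9 of 17 FBXL genes (52.9%), 19 of 36 FBXO genes (52.8%) and 4 of 10 FBXW genes (40.0%). The exact binomial 95% intervals of these shares overlap widely, at 27.8 to 77.0, 35.5 to 69.6 and 12.2 to 73.8. Each includes 39.2%, the share of all genes. Bound FBXL genes had a median of 7 sites and a maximum of 9, FBXO genes a median of 6 and a maximum of 16, and FBXW genes a median of 8 and a maximum of 12. The 8 genes with 10 or more sites were therefore 6 FBXO genes (16.7%) and 2 FBXW genes (20.0%), beside 4.99% of all genes. None of the 17 FBXL genes had as many, and whether the classes differ was not tested. These 8 genes held 105 of the 217 sites.

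**Figure D2:**
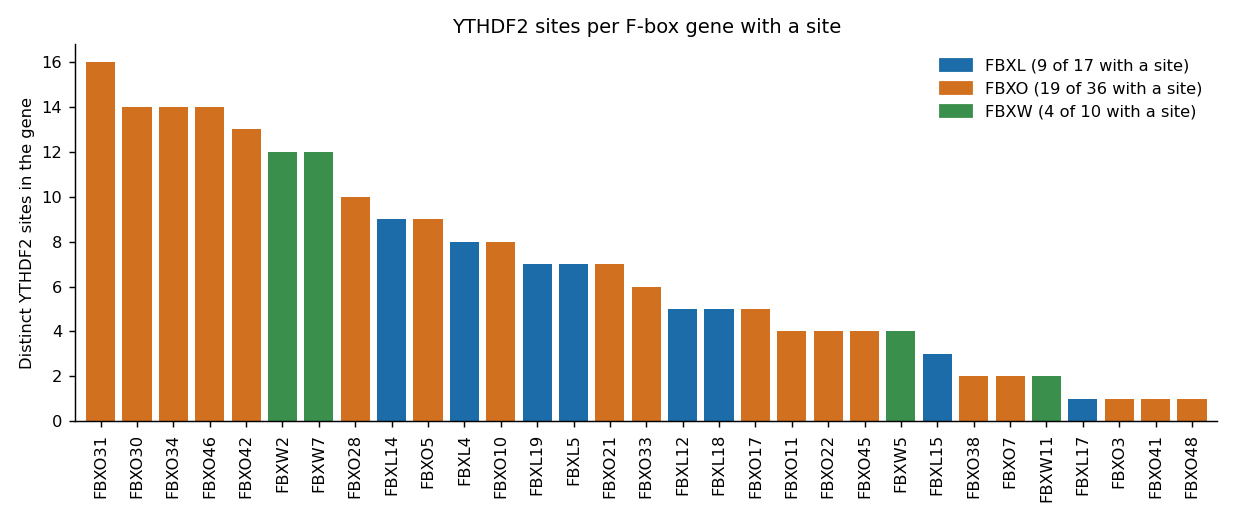
Number of distinct YTHDF2 sites (y axis) in 31 of the 32 F-box genes with a site (x axis), coloured by class. FBXO31 leads with 16 sites, 3 genes have 14, and 4 genes have a single site.

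The genes with the most sites were in the FBXO class, which has 36 of the 63 members. FBXO31, an adaptor that directs cyclin D1 to degradation, had 16 sites, more than 96.6% of all genes with a site. All 16 lay on the minus strand of chromosome 16 between 87329422 and 87331240 (GRCh38), 1818 nt out of a gene of 65.1 kb. The nearest was 2.44 kb from the 3′ end of the gene. Scores, a number the authors gave to each site on a scale they did not state in the labels, ran from 0.228 to 39.4 in FBXO31. Its highest scores were 39.4 at 87330236 and 38.1 at 87331240, and 10 of the 16 sites scored under 10. FBXO31 thus carried many sites, none of which reached the top 10% of the list by score.

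FBXO34 and FBXO46 are close relatives, and each had 14 sites in a single compact stretch. In FBXO34 the 14 sites lay on chromosome 14 from 55350699 to 55352839, 2140 nt out of 171.6 kb, and the stretch ended 90.2 kb before the 3′ end of the longest gene model. FBXO34 scores ran from 2.89 to 47.1, with a median at percentile 65.1 of the whole list. In FBXO46 the 14 sites lay on chromosome 19 from 45711559 to 45713332, 1773 nt out of 22.5 kb, ending 0.930 kb from the 3′ end. FBXO46 scores ran from 0.0940 to 29.9, with a median at percentile 54.1. The pair had the same number of sites but differed in the stretch's length and in its distance from the gene's end.

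FBXO30, an adaptor known from muscle atrophy, also had 14 sites. Of these, 12 stood on chromosome 6 from 145804598 to 145806215 and scored up to 34.1, and 2 single sites nearer the 3′ end scored 4.80 and 1.47. FBXO42, a Kelch-repeat F-box protein that acts on p53, had 13 sites, 11 of them on chromosome 1 from 16250602 to 16251718. One of these, at 16250905, scored 185, the highest score of any F-box site and percentile 99.1 of the list. That position stands on a second row of the list with a score of 3.15. The remaining FBXO42 scores were 53.5 at 16251268 and 9.86 or less elsewhere, down to 0.0287 in the site 0.738 kb from the gene's 3′ end. FBXO42 therefore held the highest score of the family, which rests on the higher row, beside a score of 53.5 and others of 9.86 or less.

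FBXO28, an adaptor linked to MYC ubiquitylation, had 10 sites, 9 of them on chromosome 1 between 224157447 and 224158701. Their highest scores were 74.0 at 224157919, 64.9 at 224157465, which scored 7.09 on its other row, and 46.7 at 224157876. FBXO5, known as EMI1, is an F-box protein that inhibits the anaphase-promoting complex and so lets cyclins build up before mitosis. FBXO5 had 9 sites, or 0.690 per kb, the highest density among F-box genes with 5 or more sites. Of the 9 sites 7 lay on chromosome 6 within 585 nt, from 152974963 to 152975548, with a top score of 92.8 at 152975156. The other two stood at 152971254, 0.719 kb from the 3′ end, with a score of 19.6, and at 152983386, near the 5′ end, with a score of 6.47. The median FBXO5 site stood at percentile 81.6 of the list. That site, at 152975459, scored 28.2, and 11.4 on its other row. The FBXO5 paralog FBXO43, the meiotic inhibitor EMI2, had no site in the list.

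Other FBXO genes had fewer sites. FBXO21 had 7 sites with a top score of 20.0, and 6 of them lay within 504 nt on chromosome 12. FBXO33 had 6 sites with a top score of 29.0. FBXO10, which acts on the survival protein BCL2, had 8 sites scoring from 0.751 to 30.6, whereas its paralog FBXO11, which directs BCL6 to degradation, had 4. The 4 FBXO11 sites lay within 273 nt on chromosome 2, from 47807745 to 47808018, and scored 45.0, 5.86, 13.3 and 30.3 in that order. The positions scoring 45.0 and 30.3 scored 10.7 and 12.1 on their other rows. The FBXO11 stretch also lies inside the span of MSH6, which runs on the other strand. FBXO22 had 4 sites, of which 75932721 on chromosome 15 scored 111 and the others 12.4 or less. The score of 111 is that of the higher of its 2 rows, and the lower was 1.55. FBXO45 had 4 sites with a top score of 62.6, at a position whose other row gave 24.1. FBXO7, an adaptor whose gene is mutated in a form of parkinsonism, had 2 sites with low scores of 8.11 and 0.264. FBXO38 had 2 sites, and FBXO3, FBXO41 and FBXO48 had 1 each, all scoring 8.51 or less.

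FBXW7, the adaptor for cyclin E, JUN, NOTCH1 and MYC, had 12 sites in 2 separate groups on chromosome 4. A group of 7 lay from 152322445 to 152323101, 1.90 kb from the 3′ end, and a group of 5 from 152411370 to 152411792, 90.8 kb from it. The first scored 22.8, 12.9, 0.517, 0.615, 9.03, 11.7 and 6.73 in genome order. The second scored 35.0, 7.15, 3.18, 0.304 and 10.5. The groups overlapped in score, and each of the 12 sites had another YTHDF2 site within 50 nt. FBXW2, an adaptor for the placental factor GCM1, also had 12 sites in 2 groups on chromosome 9. The group of 5 from 120763783 to 120764752 scored up to 63.4, at a position whose other row gave 13.4, and the group of 7 from 120787915 to 120788245, packed into 330 nt, scored up to 89.5. Of the FBXW2 sites, 4 stood in the top 10% of the list by score, the most in any F-box gene.

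FBXW11, which with BTRC forms the β-TrCP pair that degrades β-catenin and IκB, had 2 sites, scoring 28.5 at 171910724 and 5.99 at 171864009 on chromosome 5. BTRC itself had 4, none scoring above 5.80. FBXW5 had 4 sites with scores from 6.68 to 11.6. The remaining FBXW genes, FBXW4, FBXW8, FBXW9, FBXW10, FBXW10B and FBXW12, had no site. FBXW10 and FBXW10B are close copies, and no source used here says how reads were placed between them, so their absence is uncertain.

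Among the FBXL genes described here the highest scores fell in FBXL19 and FBXL14. FBXL19, which binds CpG islands through a CXXC domain, had 6 of 7 sites within 307 nt on chromosome 16, from 30948037 to 30948344, in the last 1 kb of the gene. Its top score was 126 at 30948230. FBXL14, an adaptor for the transcription factor SNAI1, had 9 sites on chromosome 12 from 1592883 to 1594005, at the 5′ end of its span and 26.9 kb from the 3′ end. A single FBXL14 site, at 1593053, scored 115, and the others scored 17.2 or less.

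FBXL5 is the iron-sensing adaptor that degrades IRP2 when iron is plentiful. All 7 of its sites lay within 444 nt on chromosome 4, from 15625354 to 15625798, and scored 11.8, 27.3, 4.55, 10.8, 1.44, 60.5 and 39.5 in genome order. Its gene spans 77.2 kb, and the stretch lay 21.0 kb from the 3′ end of the longest model. The gene of its target, IREB2, had 4 sites with a top score of 100.3. FBXL4, a mitochondrial protein that restrains mitophagy, had 8 sites in 4 groups, with 79.2 at 98875506 and 73.2 at 98926694 on chromosome 6 as the highest scores. FBXL12 had 5 sites within 325 nt of chromosome 19, all in the last 1 kb of a gene of 8.81 kb, with a top score of 85.2 at 9810759. That position scored 6.28 on its other row, and the next FBXL12 score was 35.6. FBXL18 had 5 sites scoring up to 30.6, FBXL15 had 3 in a gene of 2.30 kb, and FBXL17, which removes faulty BTB-domain dimers, had 1 site of score 3.88 in 523 kb.

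Sites were absent from 31 of the 63 F-box genes, beside 12093 of all 19906 scored genes. FBXO32, the muscle ligase atrogin-1, had no site, nor did the muscle gene FBXO40, the paralog of FBXO30, or the meiotic gene FBXO47. The glycoprotein-binding relatives FBXO2, FBXO6, FBXO27 and FBXO44 had none, while FBXO17 of the same subfamily had 5 sites within 493 nt of chromosome 19. Those 5 scored 7.34, 4.10, 0.986, 7.79 and 3.53, all below the median of the list. FBXL2 and its paralog FBXL20 had none on their own strand. The FBXL2 span held 6 positions on the opposite strand, all assigned to UBP1, and the FBXO34 span held 1, assigned to ATG14. The other genes with no site were FBXL6, FBXL7, FBXL8, FBXL13, FBXL16, FBXL22, FBXO4, FBXO8, FBXO9, FBXO15, FBXO16, FBXO24, FBXO25, FBXO36 and FBXO39. Whether these mRNAs were present in the cells was not tested.

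F-box sites came in groups, as did those of genes at large. When sites were split wherever neighbours lay more than 1 kb apart, 9 of 28 F-box genes with 2 or more sites (32.1%) formed a single group, beside 43.6% of all 6078 such genes. A further 13 (46.4%) formed 2 groups, beside 34.9%, 5 formed 3 and 1 formed 4. In the 20 genes with 5 or more sites, the densest 1 kb held a median of 71.4% of the sites, beside 66.7% over the 3012 genes with as many sites. It held 50% or more in 19 of those 20 F-box genes, the exception being FBXL4, and in 79.2% of all such genes. All sites fell within 1 kb in 3 of the 20 (15.0%), beside 15.9%. The outermost sites of a gene lay a median of 13.3 kb apart in F-box genes and 6.67 kb apart over all such genes. So by these measures F-box genes stood on either side of all genes. Of the 217 sites 90 (41.5%, exact binomial 95% interval 34.8 to 48.3) had another site within 50 nt, beside 29.7% over all genes. Without FBXW7 the share was 38.0%. In Kelch-like genes the share was 34.3% (interval 26.5 to 42.8). Sites of the same gene are not independent, so these intervals are too narrow. Genes were not matched by number of sites here, and bound F-box genes held more sites than bound genes at large. Among sites at or above the median score the shares in F-box genes and all genes were 28.7% and 20.8%. In the shorter of 2 parts of the list, which the row order shows, 0 of 53 F-box sites and 7.82% of all sites had such a neighbour.

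The groups stood at varied distances from the 3′ end. In 12 of the 20 genes (60%) the group with the most sites began within 5 kb of the gene's 3′ end, beside 59.9% of all genes with as many sites. It began within 1 kb in 4 (20.0%, beside 25.5%) and lay more than 20 kb away in 7 (35.0%, beside 20.7%). The median F-box site lay 81.3% of the way along its gene from the 5′ end, beside 82.5% over all genes. Among genes spanning 10 kb or more, 19 of 204 F-box sites (9.31%, exact binomial 95% interval 5.70 to 14.2) lay in the last 1 kb, beside 13.0% over all genes. They came from 9 genes, and FBXL19 with 6 and FBXO17 with 5 supplied most of them. In the first 1 kb stood 3 sites (1.47%, interval 0.304 to 4.24), beside 3.32% over all genes, 1 each in FBXL14, FBXO5 and FBXO33. Exon and coding boundaries were not used here, so a site's place in coding sequence or untranslated region is not given. The end of the longest gene model need not be the end used in these cells.

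**Figure D3:**
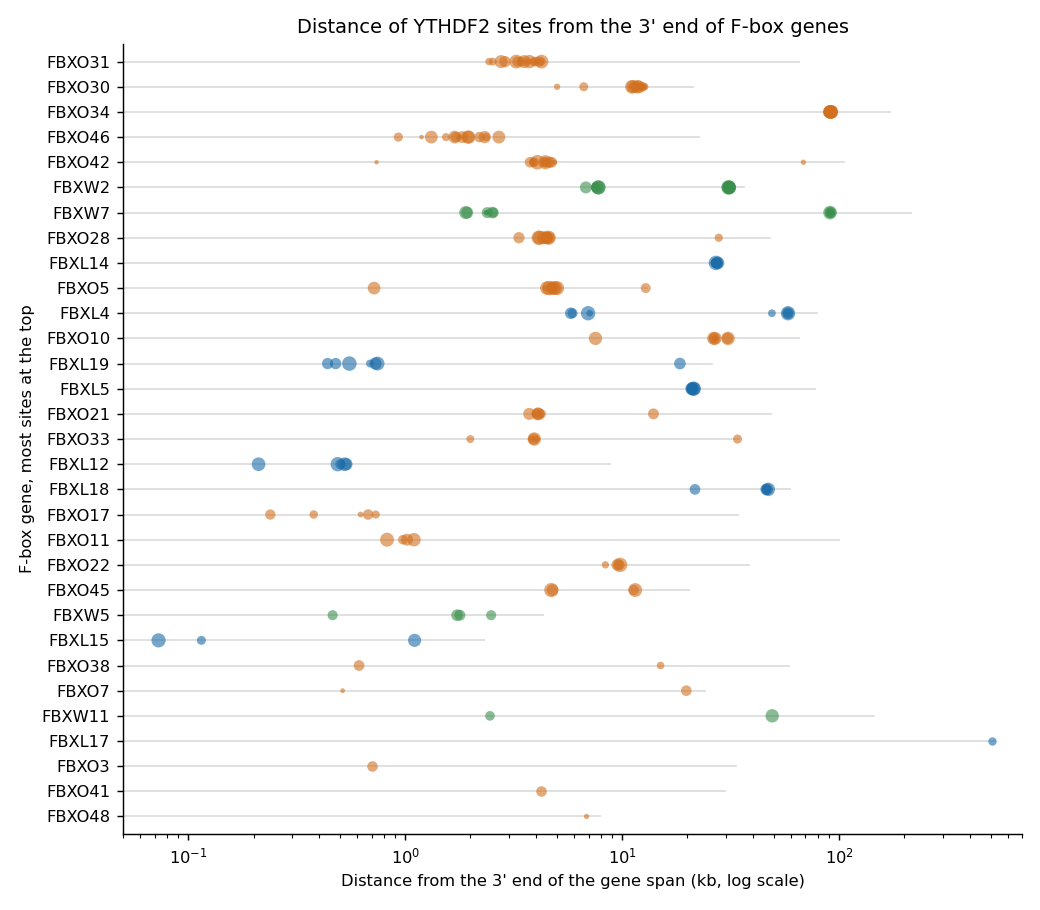
Distance of each YTHDF2 site from the 3′ end of its gene span (x axis, kb, log scale) in 31 of the 32 F-box genes with a site (y axis, most sites at the top), with larger points for higher score percentiles and a grey line for the gene span. FBXL12, FBXL19 and FBXO17 have sites within 1 kb of the end, FBXW7 and FBXW2 have 2 groups each, and the FBXO34 group lies 90.2 kb away.

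Ranks of F-box sites spread over nearly the whole list, from percentile 0.226 to 99.1, although their scores ended at 185 and those of the list at 708. Their median score was 10.1, beside 8.68 for sites in all genes, and their median rank was percentile 54.9 of the list (quartiles 31.7 and 78.0). Of 217 sites 115 (53.0%, exact binomial 95% interval 46.1 to 59.8) were at or above the list's median and 23 (10.6%, interval 6.84 to 15.5) were in its top 10%, spread over 14 genes. Scores of 100 or more were rare, at 5 sites (2.30%, interval 0.752 to 5.29) beside 3.24% over all genes. Among them were 1 site each in FBXO42, FBXL19, FBXL14 and FBXO22. None lay in FBXO31, FBXO30, FBXO34 or FBXO46, which had the most sites and topped out between 29.9 and 47.1.

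**Figure D4:**
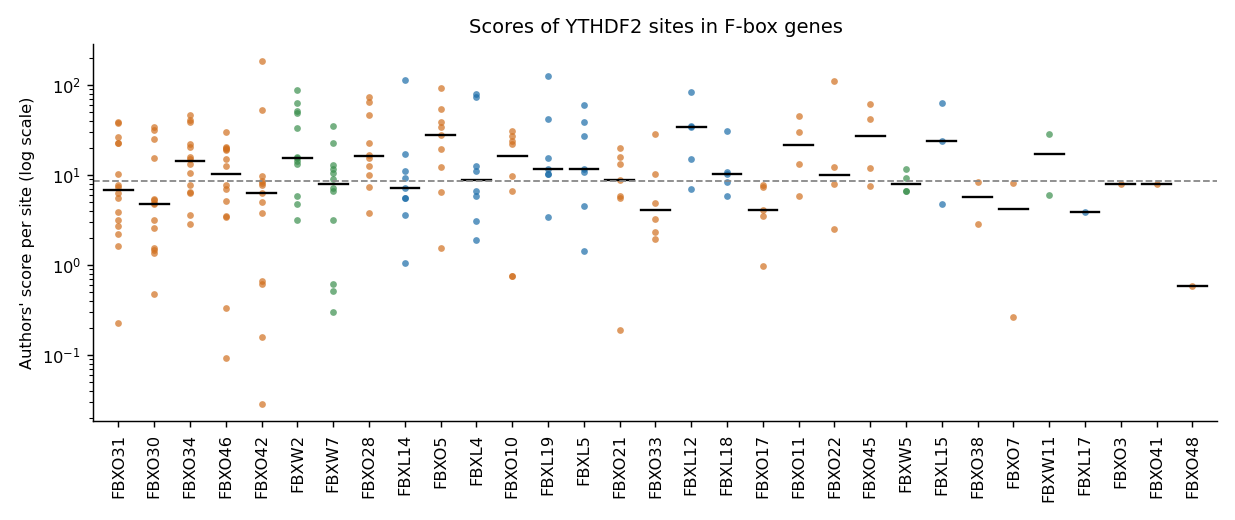
Authors' score of each site (y axis, log scale, scale not stated) in 31 of the 32 F-box genes with a site (x axis, ordered by number of sites), with a black bar at each gene's median and a dashed line at the list's median of 8.67. FBXO42 reaches from 0.0287 to 185, whereas all 5 FBXO17 points lie below the dashed line.

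Some scores rest on which row of the list is read. Where a position had 2 rows, the higher score is given above, with the lower score added for some positions only. Of the 217 positions 39 (18.0%) were given on 2 rows, beside 14.8% over all genes, and 14 (6.45%) stood only in the shorter part, beside 8.99%. No label says which libraries these parts represent. At the 39 positions, in 22 genes, the score in the longer part was higher at 27 and lower at 12, with medians of 15.4 and 7.49. In FBXO34 the position 55351620 scored 47.1 in the shorter part against 8.35, and in FBXW7 the position 152411370 scored 0.334 there against 35.0. All 32 genes (50.8% of the family) kept a site in the longer part alone, where 38.2% of all genes had one. In the shorter part alone 27 did (42.9%), beside 22.8% of all genes.

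**Figure D5:**
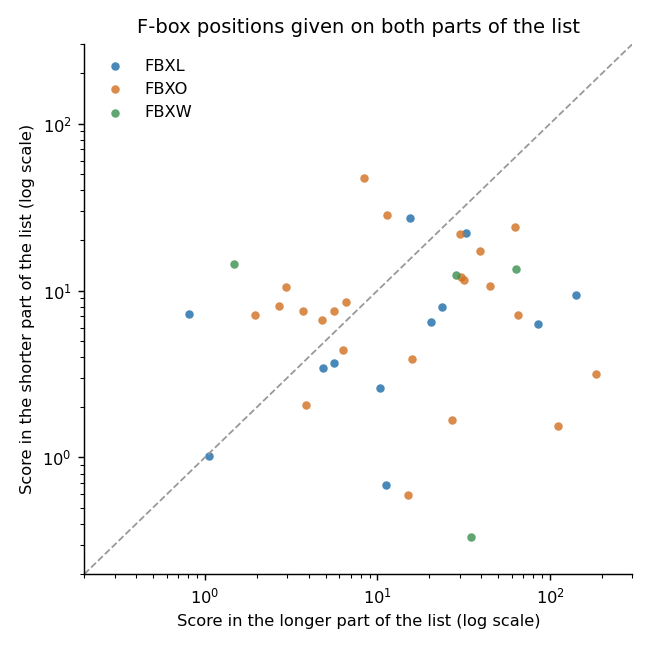
Score of the 39 F-box positions given on 2 rows, in the longer part (x axis) against the shorter part (y axis) of the list, both on log scales, with a dashed line of equality. The points scatter widely, 27 of them below the line and 12 above it.

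Most genes that build and regulate the SCF machinery had a site, but few had many. Of 14 genes for the SCF core and its E2 and partner enzymes, 13 had a site, beside 39.2% of all genes, with a median of 3, the median over all bound genes. RNF7, a RING partner of cullins, had 6, and the scaffold CUL1 and the E2 gene UBE2D2 had 5 each. ARIH1, a ligase that works with neddylated cullins, had 3, as did the E2 genes CDC34, UBE2D3, UBE2G1 and UBE2R2. The adaptor SKP1 had 2 and the RING subunit RBX1 had 1. Of 23 genes that attach or remove NEDD8 or exchange adaptors, 19 had a site, again beside 39.2%, with a median of 2. CAND1, the exchange factor that strips F-box proteins from CUL1, stood out with 16 sites and a top score of 509 on chromosome 12. SENP8 with 7, COPS2 with 6 and, at 5 each, DCUN1D3 and UBE2F followed. Of the 6 other cullins 4 had a site, again beside 39.2% of all genes. Among them CUL4A had 7 sites and CUL3 had 4.

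Genes of known SCF substrates, a list that includes FBXO5 itself, had a site in 21 of 28 cases, beside 39.2% of all genes, with a median of 4, beside 3. MCL1, a survival protein targeted by FBXW7, had 19 sites, CTNNB1, which encodes β-catenin, 13, JUN 11 and MYC 10. CDKN1B, the cyclin-dependent kinase inhibitor p27 that SKP2 targets, had 6. BCL6, CCND1, CDKN1A, CRY1, CRY2, PER2 and SNAI1 had no site. Of 10 F-box genes with other symbols 7 had a site, with a median of 5, beside the same 39.2% and 3. CCNF, or cyclin F, and the histone demethylase gene KDM2A had 10 each, the helicase gene FBH1 had 6, and KDM2B and TSPAN17 had 5 each. SKP2 had 4. With these genes added, 39 of 73 F-box genes had a site (53.4%).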

How the data were processed

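Per the labels, YTHDF2 iCLIP2 libraries came from HEK293T cells, 4 per treatment. The labels do not say whether replicates were separate cultures. The build GRCh38.p12 and the tools STAR 2.7.3a, FastQC 0.11.8, bedtools 2.27.1 and UMI-tools 1.0.0 are named, without roles, per the submitters' processing notes. No source used here names the site caller or says how libraries were pooled. The authors deposited 1 score per site, on a scale not stated, and 0 columns belong to a single library.

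The 43178 rows were joined to 37613 positions, keeping the higher score. Score percentiles are ranks within the list. A site was counted in a gene when it lay in the gene's span on its strand, with spans from a RefSeq table on GRCh38.p14, whose main chromosomes are those of GRCh38.p12. Strands came from the RefSeq promoter table for 49 F-box genes and from the majority of sites for 6. The 8 others held no position on either strand. Over all genes, 127 with positions but no strand were left out, and where both sources existed they gave the same strand for 99.9% of 6125 genes. The assignment was tested on simulated sites.

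The members and lists were chosen with earlier results of these data known. Genes are named by a rule: the 10 with the most sites, 5 with the highest score, 5 with the highest density, 10 well-studied members, and up to 4 per pathway list. A gene that the rule selects is not reported here, though counts over the family include it. Others are named to account for all members or as paralogs and targets. Computation used Python 3.11.15 with pandas 2.3.3 and scipy 1.17.1. Sequences at the sites were not analysed here.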

Additional observations from a re-analysis of the deposited data

How the results depend on the processing

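The number of F-box genes with a site stayed within 1.5 times of 32 under the 7 alternatives tried, from 25 with sites at or above the median score (39.7%, beside 30.7% of all genes) to 32. Among these, merging sites closer than 50 nt keeps a site of each cluster, and leaving out FBXW7 removes only that gene. The outcomes of both settings were nearly fixed beforehand. The number of sites moved from 217 to 115 with those higher-scoring sites and to 53 in the shorter part of the list, where the median per bound gene was 2. Sites in the last 1 kb moved from 19 to 7 and 3 under the same settings, and to 4 and 33 with windows of 500 and 2000 nt. Those in the first 1 kb moved from 3 to 0 and 1, and to 1 and 11 with these windows. The share of sites with a neighbour within 50 nt moved from 41.5% to 28.7% with higher-scoring sites, 33.7% with positions on 1 row and 0% in the shorter part, and to 19.4% and 60.4% at 20 and 100 nt. The cause of these moves was not tested. Each restriction of the list also leaves fewer sites, whereas the changed windows and neighbour distances use the same sites. The median score percentile, the median sites per kb and the share of members with a site, tried with their own alternatives, stayed within their 95% intervals. Wherever sites were merged or the list was restricted by score, row or part, score percentiles were ranked anew within the remaining sites. Those settings therefore cannot show whether the median percentile would hold on the original ranks. Leaving out FBXW7 was chosen after seeing the data. No paired analysis was possible because no value in the list is labelled with a library. Depth is unknown, so the list does not show that a gene without a site is unbound.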
